A study of Macaca mulatta with 30 samples.

Results

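Potassium channel genes were described in the cerebral cortex of the rhesus macaque by taking every probe set annotated with a single gene symbol of the KCN families. This gave 75 genes, each with 1 probe set, among 40489 probe sets and 15534 gene symbols on the array. They comprised 23 genes of voltage-gated subunits, 8 modifier subunits that conduct only when joined to other subunits, 14 auxiliary subunits, 5 calcium- or sodium-activated channels, 12 inward rectifiers and 13 two-pore channels. Of these genes, 65 passed the filter on dim probe sets (mean over the 30 arrays above 6.04 log2), and the other 10 are described at the end of the regional results.

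The study sampled 3 regions from both hemispheres of 5 animals, frozen after death. VFC is ventrolateral prefrontal cortex at the arcuate sulcus, which corresponds to part of Broca's area in people. STC is posterior superior temporal cortex, corresponding to Wernicke's area, and M1C is the primary motor area that controls the forelimb. With 1 array for each animal, region and hemisphere, a region has 10 arrays, 5 of them from the left. Animals 1, 2 and 3 were female, aged 7.3, 5.5 and 8.6 years, and animals 4 and 5 were male, aged 4.2 and 2 years, so that sex, age and animal cannot be told apart. Values are RMA log2 intensities of tissue pieces, in which fewer cells of a type and less RNA per cell cannot be told apart. They carry the affinity of each probe set, so only values of the same gene are compared.

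Potassium channels let potassium ions leave or enter cells and so set the resting potential and end the action potential. Voltage-gated channels open on depolarization, and the KCNA and KCNC families serve axons and fast-firing neurons. Modifier subunits tune the KCNB channels, and auxiliary subunits change the gating or the trafficking of the channel they bind. Inward rectifiers and two-pore channels hold the resting potential, and in glia the rectifiers also take up potassium released by active neurons.

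Arrays of the same animal resembled each other, but 2 arrays stood apart from their labels. After subtraction of the group mean, the 75 within-animal pairs of arrays had a median r of 0.32 over probe sets, and 28 of 30 arrays lay nearest to their own animal. The array labelled M1C left of animal 3 had a mean correlation of -0.059 with animal 3 and 0.085 with animal 4. That labelled STC right of animal 4 had 0.087 with animal 4 and 0.202 with animal 3. EIF1AY, a gene of the Y chromosome, read 8.34 on the array labelled as female animal 3 and 7.25 on that labelled as male animal 4. It read 6.83 to 7.70 on the arrays of females 1 and 2 and 8.30 to 8.53 on those of male 5. Each thus lay nearer the other's animal. Whether the 2 were exchanged was not tested, and if they were, their values stand under the wrong animal, region and hemisphere. Results are given for all 30 arrays as labelled and, where they depend on it, without these 2 arrays. In region comparisons the value of that animal and region then came from the other hemisphere alone. For left minus right that animal then had no difference in that region, and its mean of regions came from its other regions. A further setting also left out STC right of animal 3, where EIF1AY read 7.87, and VFC left of animal 4, which an earlier analysis of these values had set aside.

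Potassium channel genes differed between prefrontal and motor cortex in both directions. In VFC relative to M1C, 7 of 65 genes were higher (10.8%, where 5.19% of the 24292 tested probe sets were) and 12 were lower (18.5%, against 5.32%), by limma with adjusted p under 0.05 over all tested probe sets. Without the 2 arrays 10 were higher (15.4%, against 7.17%) and 12 lower (18.5%, against 7.58%), among them the same 7 and the same 12. Without all 4 arrays the counts were again 10 (against 7.18%) and 12 (against 7.78%). The median difference of the 65 genes was 0.0040 log2, beside 0.0028 log2 for all tested probe sets.

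**Figure D1:**
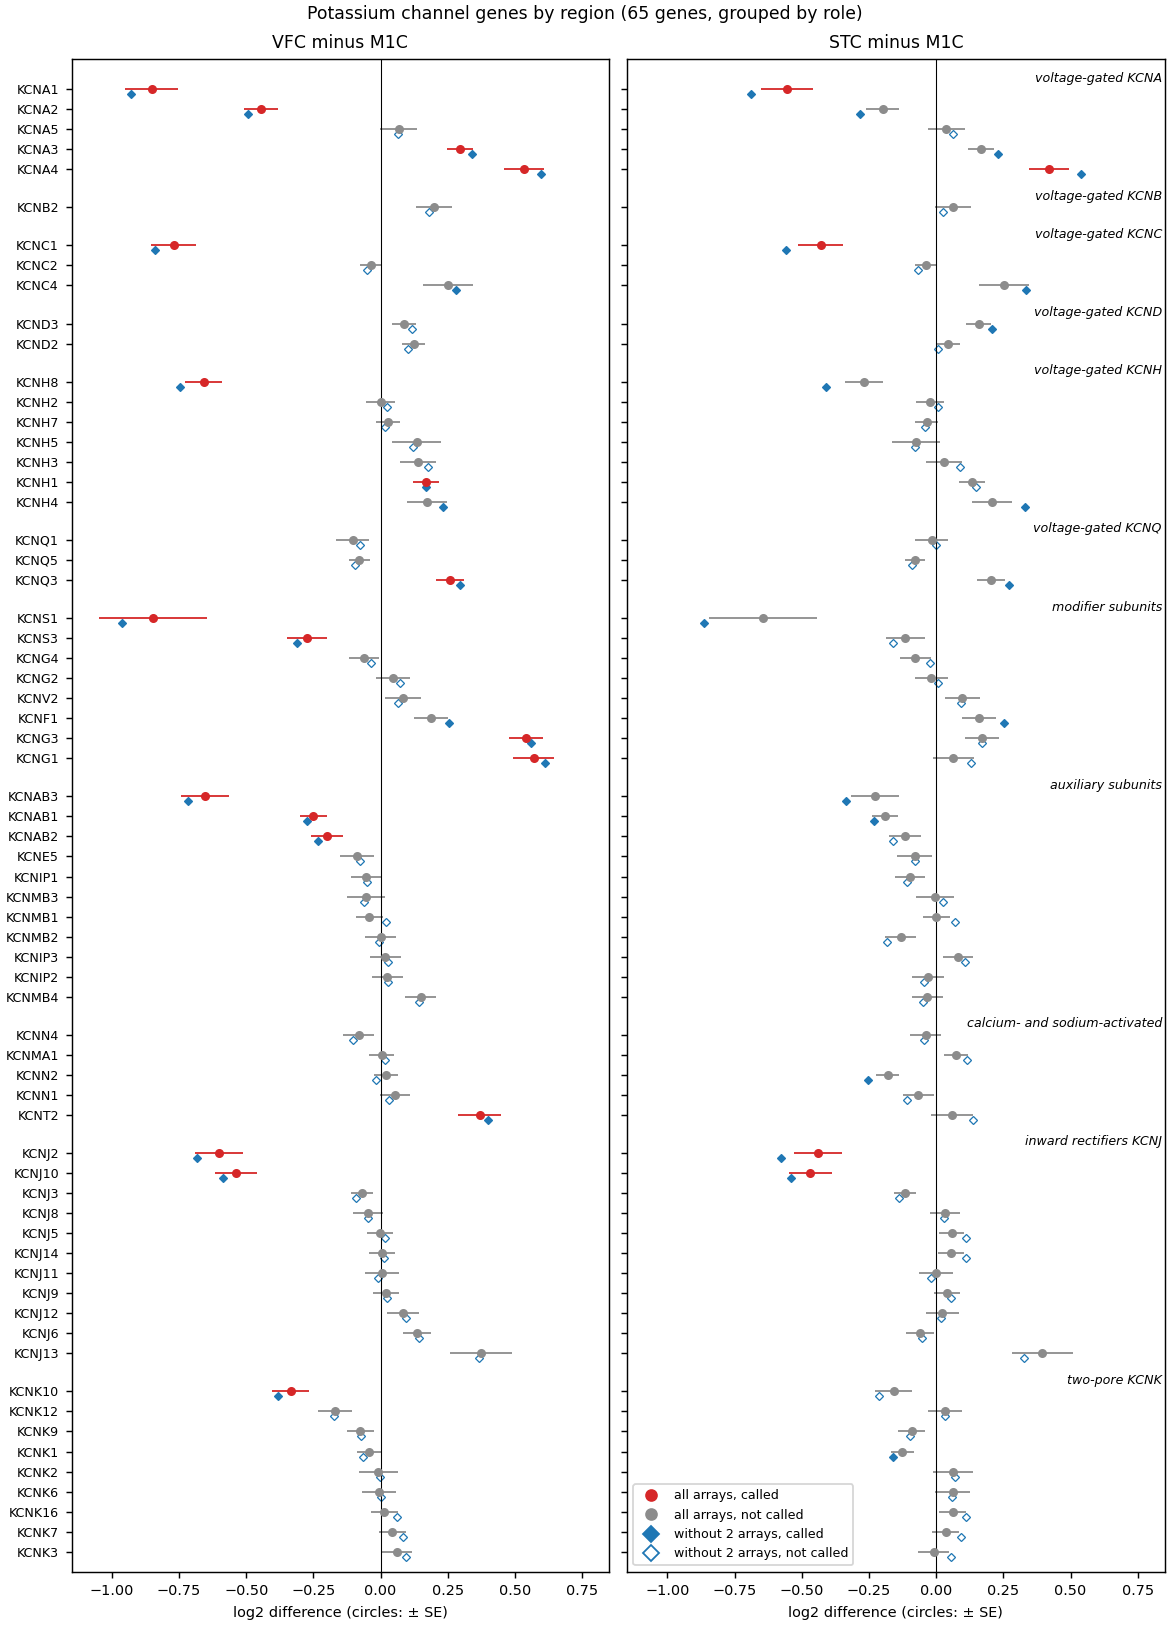
Log2 differences of the 65 potassium channel genes past the filter, VFC minus M1C on the left and STC minus M1C on the right, with genes grouped by role. Circles with bars are means ± SE over 5 animals with all arrays (red where called), and diamonds are the differences without the 2 arrays that stand apart (filled where called). Most genes lie near 0, while KCNA1, KCNS1 and KCNC1 reach -0.77 or below and KCNG1, KCNG3 and KCNA4 reach 0.53 or above in VFC minus M1C.

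Markers of cell types moved beside these differences, KCNJ10 being a gene of glia and KCNA1, KCNC1 and the KCNAB genes of axons and fast-firing neurons. All 9 of 9 tested oligodendrocyte markers were lower in VFC relative to M1C (median -0.90 log2), and their mean level per array lay between 8.28 and 9.70 log2 in VFC and between 9.33 and 10.40 in M1C. All 4 of 4 tested markers of large-axon and fast-firing neurons were lower as well (median -1.20 log2), with levels of 8.98 to 10.05 in VFC and 9.78 to 11.02 in M1C. SYT2, VAMP1, SPP1 and NEFL of that list differed by -1.57, -1.19, -1.21 and -0.43 log2. Astrocyte markers were called in 1 of 6 cases, lower (median -0.065 log2), and their level lay between 10.19 and 10.31 in VFC and between 10.13 and 10.41 in M1C. Meningeal markers were higher in 3 of 4 cases (median 0.60 log2), with levels of 7.40 to 9.08 in VFC and 6.78 to 7.94 in M1C. Excitatory neuron markers were called higher in 2 of 5 cases (median 0.034 log2), with levels of 9.67 to 9.96 in VFC and 9.61 to 9.99 in M1C. Of 7 inhibitory interneuron markers 1 was higher and 1 lower (median -0.032 log2), and of 4 endothelial and pericyte markers 1 was lower (median -0.11 log2). Limma called 0 of 3 microglia markers (2 at an unadjusted p under 0.05, median 0.19 log2). RMA values have no zero, so no marker was at 0. The part of these cell types in the differences of potassium channel genes was not tested.

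Within the KCNA family the members moved in opposite directions. KCNA1, an axonal subunit that limits repetitive firing, had a lowest, median and highest value of 9.59, 10.05 and 10.48 log2 over the 10 VFC arrays. Its values were 9.98, 10.24 and 10.99 in STC and 10.27, 10.90 and 11.21 in M1C. VFC and M1C overlapped only through the array labelled M1C left of animal 3, and without the 2 arrays the lowest M1C value was 10.65. The difference was -0.85 ± 0.097 log2 in VFC relative to M1C (SE, n = 5 animals, lower in 5 of 5, limma adjusted p = 0.00118). KCNA2, which shares axonal channels with KCNA1, spanned 9.25 to 10.10 in VFC (median 9.75) and 9.80 to 10.44 in M1C (median 10.20). The ranges overlapped, and KCNA2 was lower in VFC, with a difference of -0.44 ± 0.062 log2 (limma adjusted p = 0.00219, 5 of 5 animals).

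KCNA4 and KCNA3 went the other way. KCNA4, a rapidly inactivating subunit, had values of 7.89, 8.07 and 8.43 in VFC (lowest, median, highest), 7.51, 8.04 and 8.20 in STC, and 7.24, 7.55 and 8.06 in M1C. The highest M1C value came from the array that stands apart, and without it no M1C array exceeded 7.87. KCNA4 was higher in VFC by 0.53 ± 0.075 log2 (1.45-fold, limma adjusted p = 0.00219, 5 of 5 animals). KCNA3 ranged from 8.50 to 8.77 in VFC (median 8.57) and from 8.06 to 8.59 in M1C (median 8.29), where again the single overlapping M1C array was that of animal 3. It was higher by 0.29 ± 0.049 log2 (limma adjusted p = 0.00404, 5 of 5 animals). KCNA5 differed by 0.067 ± 0.069 log2 and was not called (limma adjusted p = 0.609). Of the 5 KCNA genes tested, 2 were thus higher and 2 lower in VFC, against 5.19% and 5.32% of all tested probe sets.

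All 3 auxiliary beta subunits that bind KCNA channels were lower in VFC, where 5.32% of all tested probe sets were. KCNAB3 had lowest, median and highest values of 6.44, 6.78 and 7.25 in VFC against 6.77, 7.50 and 7.78 in M1C, with partly overlapping ranges. It was lower, with a difference of -0.65 ± 0.089 log2 (limma adjusted p = 0.00201, 5 of 5 animals). KCNAB1 ranged from 8.93 to 9.27 in VFC and from 9.13 to 9.56 in M1C (-0.25 ± 0.049 log2, limma adjusted p = 0.00888). KCNAB2 ranged from 10.11 to 10.58 in VFC and from 10.37 to 10.70 in M1C (-0.20 ± 0.058 log2, limma adjusted p = 0.0475). KCNAB2 was the weakest of the 3, and its call was lost when animal 2, 3, 4 or 5 was left out (limma adjusted p between 0.0627 and 0.182). None of the other 8 auxiliary subunits tested was called. They included the KCND-binding KCNIP1 (-0.056 ± 0.056 log2) and the BK subunit KCNMB4 (0.15 ± 0.057 log2, limma adjusted p = 0.127).

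Of the KCNC genes, which let neurons fire at high rates, KCNC1 was the only one called with all arrays. It had lowest, median and highest values of 8.48, 8.82 and 9.17 in VFC, 8.79, 9.12 and 9.70 in STC, and 9.11, 9.69 and 9.81 in M1C. The M1C value of 9.11 and the STC value of 9.70 were on the 2 arrays that stand apart, and without them VFC and M1C did not overlap. KCNC1 was lower in VFC, with a difference of -0.77 ± 0.084 log2 (1.71-fold, limma adjusted p = 0.00118, 5 of 5 animals). Its close relative KCNC2 ranged from 10.76 to 11.02 in VFC and from 10.80 to 11.06 in M1C, a difference of -0.034 ± 0.041 log2 (limma adjusted p = 0.662). KCNC4 read 0.25 ± 0.092 log2 higher (limma adjusted p = 0.113) and was called without the 2 arrays (0.28 ± 0.087 log2, limma adjusted p = 0.0476).

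Among the modifier subunits 2 genes were higher and 2 lower in VFC, where 5.19% of all tested probe sets were higher and 5.32% lower. KCNG3 had values of 7.78, 8.02 and 8.24 in VFC (lowest, median, highest), 7.43, 7.65 and 7.88 in STC, and 7.27, 7.46 and 7.71 in M1C. Every VFC array lay above every M1C array, and the difference was 0.54 ± 0.063 log2 (limma adjusted p = 0.00118, 5 of 5 animals). KCNG1 had 7.53, 7.77 and 8.39 in VFC, 7.07, 7.37 and 7.70 in STC, and 6.96, 7.33 and 7.67 in M1C. Its ranges overlapped, and it was higher in VFC by 0.57 ± 0.076 log2 (1.48-fold, limma adjusted p = 0.00197, 5 of 5 animals).

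KCNS1, a modifier subunit, had the largest standard error of the called genes. Its lowest, median and highest values were 7.96, 9.50 and 10.02 in VFC, 8.91, 9.43 and 10.41 in STC, and 9.25, 10.30 and 10.46 in M1C. Animal 2 was low in VFC, with 7.96 on the left and 8.76 on the right. The difference was -0.85 ± 0.20 log2 (limma adjusted p = 0.0197, 5 of 5 animals). It was not called when animal 2, 4 or 5 was left out, and without animal 2 it was -0.59 log2 (limma adjusted p = 0.0738). Leaving out the 2 arrays gave -0.96 ± 0.16 log2 (limma adjusted p = 0.002), and the highest VFC value of 10.02 lay below the lowest M1C value of 10.14. KCNS3 was lower, with a difference of -0.27 ± 0.074 log2 (limma adjusted p = 0.0345) in 4 of 5 animals. It is named outside the rule for named genes as the one called gene that, with all arrays, did not move the same way in all animals. The exception was animal 3, whose M1C left array stands apart, with 6.97 in VFC and 6.95 in M1C. Without the 2 arrays its M1C level was 7.13, and KCNS3 was lower in VFC in 5 of 5 animals. KCNF1 was not called with all arrays (0.19 ± 0.063 log2, limma adjusted p = 0.0814) and was called without the 2 arrays (0.25 ± 0.059 log2, limma adjusted p = 0.0114).

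**Figure D2:**
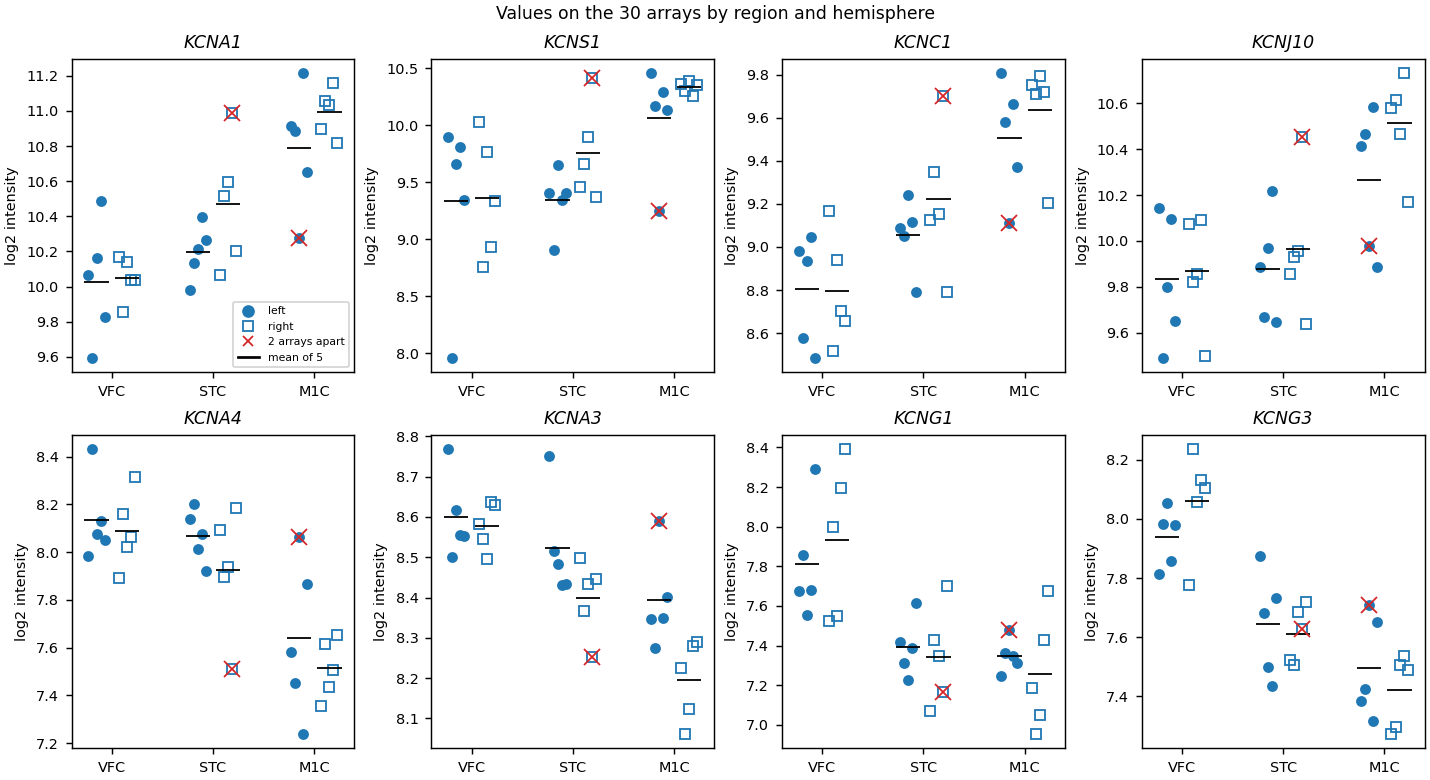
Log2 intensities of 8 potassium channel genes on the 30 arrays, with VFC, STC and M1C from left to right and left (filled circles) beside right (open squares) within a region. Horizontal lines are means of 5 arrays, and red crosses mark the 2 arrays that stand apart, M1C left of animal 3 and STC right of animal 4. The M1C cross lies with the VFC and STC values for KCNA1, KCNS1, KCNC1 and KCNA4, at 10.27, 9.25, 9.11 and 8.06 log2, and the STC cross with the M1C values, at 10.99, 10.41, 9.70 and 7.51 log2.

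The remaining voltage-gated families held 3 called genes among 13 tested, where 5.19% of all tested probe sets were higher and 5.32% lower. KCNH8, of the ELK type, had values of 5.63, 5.86 and 6.21 in VFC (lowest, median, highest), 5.70, 6.31 and 6.73 in STC, and 6.18, 6.57 and 7.06 in M1C. It was lower in VFC, with a difference of -0.66 ± 0.069 log2 (limma adjusted p = 0.00118, 5 of 5 animals), and its VFC mean of 5.90 lay below the 6.04 that served as the filter over all arrays, so the low end is near the dim range of the array. KCNQ3, a subunit of the M current that restrains repeated firing, ranged from 9.72 to 10.01 in VFC and from 9.46 to 9.88 in M1C. It was higher by 0.26 ± 0.052 log2 (limma adjusted p = 0.00997, 5 of 5 animals), while KCNQ5, of the same current, differed by -0.080 ± 0.039 log2 (limma adjusted p = 0.231). KCNH1, of the EAG type, ranged from 9.66 to 9.95 in VFC and from 9.45 to 9.86 in M1C (0.17 ± 0.049 log2, limma adjusted p = 0.0441). It was the weakest call in this direction, with a limma adjusted p between 0.0991 and 0.173 when animal 1, 2, 4 or 5 was left out. The KCND genes of the dendritic A-type current were not called (KCND2 0.12 ± 0.043 log2, KCND3 0.087 ± 0.045 log2), and nor was KCNH7 (0.027 ± 0.043 log2) or KCNB2 (0.20 ± 0.066 log2, limma adjusted p = 0.0781).

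Inward rectifiers divided into 2 genes that were lower in VFC (against 5.32% of all tested probe sets) and 9 that were not called. KCNJ10, the main rectifier of astrocytes and oligodendrocytes, had lowest, median and highest values of 9.49, 9.84 and 10.14 in VFC, 9.64, 9.91 and 10.45 in STC, and 9.89, 10.47 and 10.73 in M1C. Animal 5 was among the lowest in each region, and the ranges overlapped although each animal was lower in VFC. The difference was -0.54 ± 0.079 log2 (1.45-fold, limma adjusted p = 0.00271, 5 of 5 animals). KCNJ2, a strong rectifier, had 7.60, 7.95 and 8.15 in VFC, 7.49, 8.09 and 8.72 in STC, and 8.04, 8.64 and 8.85 in M1C. It was lower, with a difference of -0.60 ± 0.089 log2 (limma adjusted p = 0.0029, 5 of 5 animals). Of the G protein-gated rectifiers none was called, with differences of -0.070 ± 0.041 (KCNJ3), 0.14 ± 0.052 (KCNJ6), 0.020 ± 0.049 (KCNJ9) and -0.0021 ± 0.048 log2 (KCNJ5). KCNJ13, which is known from epithelia such as the choroid plexus, read 0.37 ± 0.11 log2 higher in VFC in 5 of 5 animals and was not called (limma adjusted p = 0.0565), where meningeal markers were higher too.

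Of 9 two-pore genes tested 1 was called, lower, and of 5 calcium- or sodium-activated genes 1 was called, higher. Of all tested probe sets 5.32% were lower and 5.19% higher. KCNK10, a mechanosensitive leak channel, had values of 6.63, 7.04 and 7.39 in VFC (lowest, median, highest) against 7.16, 7.35 and 7.64 in M1C. Its ranges overlapped, and it was lower, with a difference of -0.33 ± 0.068 log2 (limma adjusted p = 0.0101, 5 of 5 animals). The other 8 two-pore genes tested were not called, among them KCNK1 (-0.043 ± 0.044 log2) and KCNK2 (-0.0090 ± 0.074 log2), a close relative of KCNK10. KCNT2, a sodium-activated channel, had 7.84, 8.10 and 8.32 in VFC against 7.46, 7.70 and 8.02 in M1C. It was higher by 0.37 ± 0.079 log2 (limma adjusted p = 0.0122, 5 of 5 animals). In animal 3, whose M1C left array stands apart, it differed by only 0.02 log2. Without the 2 arrays that animal had 7.87 in VFC and 7.69 in M1C. KCNT2 was not called when animal 2, 4 or 5 was left out (limma adjusted p between 0.0508 and 0.0646). The calcium-activated KCNMA1 (0.0026 ± 0.045 log2) and KCNN2 (0.020 ± 0.044 log2) were not called.

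Most other genes were bounded closely. Of the 46 genes not called in VFC relative to M1C with all arrays, 44 had a 95% confidence interval within a 1.3-fold difference in either direction. Some of the 46 were called higher without the 2 arrays, where 10 genes were higher, against 7 with all arrays. Of the 18 genes called with the same direction in all animals, 14 remained called whichever animal was left out. The exceptions were KCNS1, KCNAB2, KCNH1 and KCNT2.

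The hemispheres, taken alone, gave differences in the same direction but unequal numbers of calls. In the right hemisphere, where none of the 4 doubted arrays enters VFC or M1C, 7 genes were called higher (10.8%, against 2.67% of all tested probe sets) and 10 lower (15.4%, against 2.05%). Of these, 6 and 10 were among the genes called with both hemispheres, and the gene gained was KCNJ13. The spread in that fit also drew on the STC right arrays of animals 3 and 4. In the left hemisphere, which holds M1C of animal 3 and VFC of animal 4, limma called 0 genes in either direction (against 0.00823% of all tested probe sets higher and 0.00412% lower), with 23 at an unadjusted p under 0.05 (35.4%, against 15.6%). KCNA1 differed by -0.94 ± 0.12 log2 on the right (limma adjusted p = 0.00436) and by -0.76 ± 0.14 log2 on the left (limma adjusted p = 0.0618). KCNG3 differed by 0.64 ± 0.072 log2 on the right (limma adjusted p = 0.00431) and by 0.44 ± 0.087 log2 on the left (limma adjusted p = 0.0692). For each of the 18 named genes the direction was the same on both sides.

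**Figure D3:**
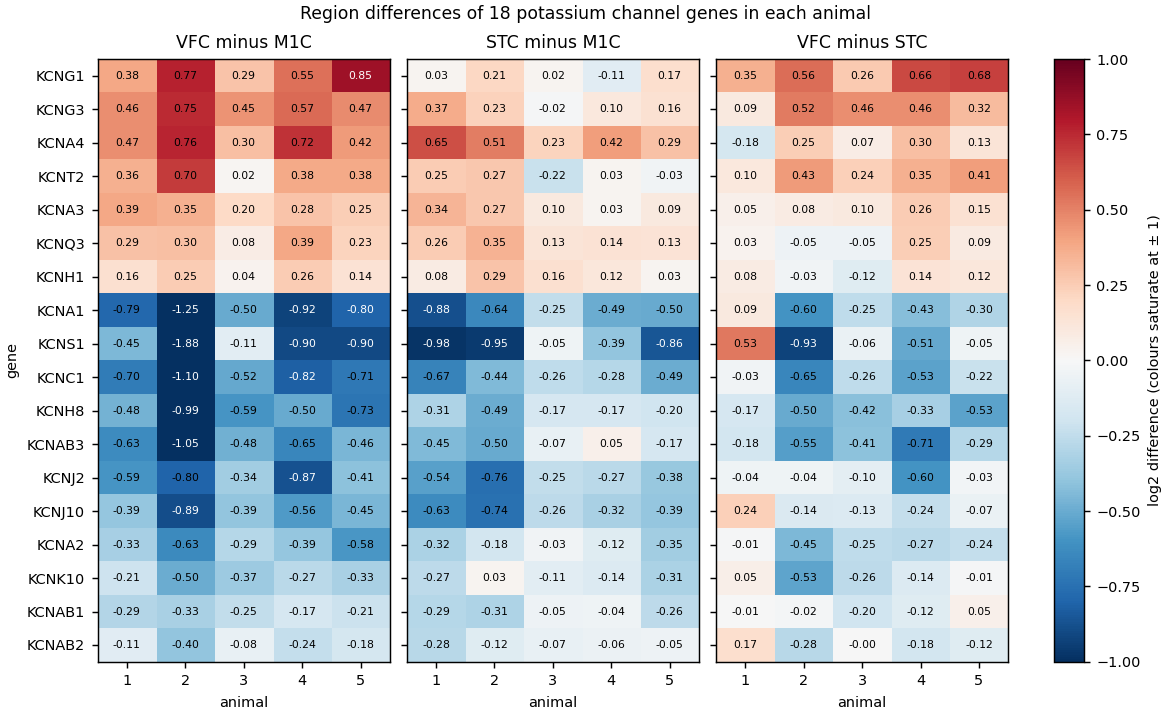
Log2 differences in each of the 5 animals (columns) for the 18 potassium channel genes that were called in VFC minus M1C and moved the same way in all animals (rows). Panels show VFC minus M1C, STC minus M1C and VFC minus STC, with red for higher and blue for lower in the region named first. Animal 2 shows the largest differences for KCNA1 (-1.25 log2) and KCNS1 (-1.88 log2), and animal 3, which holds the M1C left array that stands apart, the smallest for KCNA1 (-0.50 log2).

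Temporal cortex differed from motor cortex in fewer genes when all arrays were used. In STC relative to M1C, 1 gene was higher (1.54%, against 1.22% of all tested probe sets) and 4 were lower (6.15%, against 1.14%). KCNA4 was higher by 0.42 ± 0.075 log2 (limma adjusted p = 0.019). KCNA1 was lower, with a difference of -0.55 ± 0.097 log2 (limma adjusted p = 0.0188), KCNJ10 with -0.47 ± 0.079 log2 (limma adjusted p = 0.0159), KCNJ2 with -0.44 ± 0.089 log2 (limma adjusted p = 0.0284) and KCNC1 with -0.43 ± 0.084 log2 (limma adjusted p = 0.0257). Each moved the same way in 5 of 5 animals, and all 5 genes were among those called in the same direction in VFC relative to M1C, a comparison that shares the M1C arrays. None of the 5 was called when animal 1, 2 or 5 was left out (limma adjusted p between 0.0523 and 0.161).

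Both arrays that stand apart enter STC relative to M1C, and the count moved most there. Without them 7 genes were higher (10.8%, against 5.96%) and 11 lower (16.9%, against 6.63%), including the 5 above. Without all 4 arrays 7 were higher (against 5.64%) and 12 lower (18.5%, against 6.31%). With the 2 arrays left out, KCNA1 lay between 9.98 and 10.60 in STC and between 10.65 and 11.21 in M1C, without overlap, and differed by -0.69 ± 0.080 log2 (limma adjusted p = 0.000402). In the same setting KCNS1 lay between 8.91 and 9.89 in STC and between 10.14 and 10.46 in M1C, also without overlap. It differed by -0.87 ± 0.16 log2 (limma adjusted p = 0.00548), where with all arrays it had -0.64 ± 0.20 log2 and was not called (limma adjusted p = 0.108). The other genes gained as lower were KCNA2, KCNAB1, KCNAB3, KCNH8, KCNK1 and KCNN2, and those gained as higher were KCNA3, KCNC4, KCND3, KCNF1, KCNH4 and KCNQ3. KCNN2, a small-conductance calcium-activated channel, stood out among them, with -0.25 ± 0.053 log2 in STC (limma adjusted p = 0.00885) and -0.016 ± 0.053 log2 in VFC relative to M1C. Oligodendrocyte markers were lower in STC relative to M1C in 0 of 9 cases by limma with all arrays (4 at an unadjusted p under 0.05, median -0.43 log2) and in 7 of 9 without the 2 (median -0.60 log2). Markers of large-axon and fast-firing neurons were lower in 2 of 4 (median -0.66 log2) and 4 of 4 cases (median -0.91 log2). Astrocyte markers were lower in 1 and 2 of 6 cases, and endothelial and pericyte markers in 0 and 2 of 4. Excitatory neuron markers were called higher in 0 and 2 of 5 cases. Of 7 inhibitory interneuron markers 1 was called, higher, and without the 2 arrays 3 were called, of which 2 were higher. Limma called 0 meningeal and 0 microglia markers in both settings, with 3 of 4 meningeal markers higher at an unadjusted p under 0.05 with all arrays. The part of these cell types was not tested.

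Of the remaining genes taken as examples, KCND2 (0.044 ± 0.043 log2), KCNQ5 (-0.079 ± 0.039), KCNH7 (-0.035 ± 0.043), KCNIP1 (-0.098 ± 0.056), KCNMA1 (0.075 ± 0.045), KCNJ3 (-0.11 ± 0.041) and KCNK2 (0.063 ± 0.074) were not called in STC relative to M1C with all arrays or without the 2. With all arrays KCNA2 (-0.20 ± 0.062 log2), KCNAB1 (-0.19 ± 0.049), KCND3 (0.16 ± 0.045), KCNN2 (-0.18 ± 0.044) and KCNK1 (-0.13 ± 0.044) were not called either.

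The comparison of prefrontal with temporal cortex gave the fewest calls, and the modifier subunits KCNG1 and KCNG3 led it. In VFC relative to STC, 2 genes were higher (3.08%, against 0.148% of all tested probe sets) and 1 was lower (1.54%, against 0.0659%). KCNG1 was higher by 0.51 ± 0.076 log2 (limma adjusted p = 0.0226) and KCNG3 by 0.37 ± 0.063 log2 (limma adjusted p = 0.0405), each in 5 of 5 animals. In STC relative to M1C they differed by 0.064 ± 0.076 log2 (KCNG1) and 0.17 ± 0.063 log2 (KCNG3), and neither was called. KCNH8 was lower in VFC, with a difference of -0.39 ± 0.069 log2 in 5 of 5 animals (limma adjusted p = 0.0475). Limma called 0 cell-type markers in VFC relative to STC. At an unadjusted p under 0.05 there were 9 of 9 oligodendrocyte markers (median -0.48 log2) and 3 of 4 of large-axon and fast-firing neurons (median -0.54 log2), all lower. Of microglia markers 3 of 3 were higher (median 0.20 log2). Of excitatory neuron markers there were 3 of 5, of which only 1 was higher (median 0.034 log2). Of inhibitory interneuron markers there were 2 of 7, with 0 higher, and of astrocyte markers 1 of 6, higher. Without the 2 arrays 2 of 5 excitatory neuron markers were called lower. Their part in the differences of these genes was not tested.

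Leaving out the 2 arrays, KCNG1 (0.48 ± 0.067 log2, limma adjusted p = 0.00785) and KCNG3 (0.39 ± 0.064 log2, limma adjusted p = 0.0208) were again the 2 higher genes (against 0.465%). The 1 lower gene (against 0.189%) was then KCNAB3 (-0.38 ± 0.073 log2, limma adjusted p = 0.0409) in place of KCNH8 (-0.34 ± 0.084 log2, limma adjusted p = 0.096). Without all 4 arrays the counts were 2 (against 0.729%) and 1 (against 0.366%). None of the 3 genes named for VFC relative to STC held when animal 2, 3, 4 or 5 was left out (limma adjusted p between 0.073 and 0.262). KCNA1 (-0.30 ± 0.097 log2), KCNA2 (-0.25 ± 0.062), KCNC1 (-0.34 ± 0.084), KCNN2 (0.20 ± 0.044) and KCNS1 (-0.20 ± 0.20) were not called. For KCNS1 the value without the 2 arrays was -0.096 ± 0.16 log2. The other examples lay between -0.072 (KCNK2) and 0.083 log2 (KCNK1), with KCNJ10 at -0.070 ± 0.079 log2, and were not called either.

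The order of the regions was thus not the same for all called genes. On the log2 scale KCNA1 averaged 10.04 ± 0.21 in VFC, 10.34 ± 0.25 in STC and 10.89 ± 0.21 in M1C (SD, n = 5 animals), and VFC and STC did not differ beyond the threshold. KCNC1 ran the same way, with 8.80 ± 0.23 in VFC, 9.14 ± 0.22 in STC and 9.57 ± 0.20 in M1C. KCNJ10 had 9.85 ± 0.24 in VFC and 9.92 ± 0.26 in STC, which did not differ beyond the threshold, and 10.39 ± 0.26 in M1C. KCNG1 had its high level in VFC alone, with 7.87 ± 0.32 there, 7.37 ± 0.17 in STC and 7.30 ± 0.13 in M1C.

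The 10 dim genes were KCNH6, KCNJ15, KCNK5, KCNE3, KCNE4, KCNE1, KCNK13, KCNA10, KCNK18 and KCNK17, with means over the 30 arrays of 5.20 (KCNH6) to 5.99 log2 (KCNK17). In a fit without the filter limma called 0 of them in any region or hemisphere comparison, with 2 of 30 values of the region comparisons at an unadjusted p under 0.05. The largest region difference among them was that of KCNE3, 0.24 ± 0.072 log2 higher in STC relative to M1C in 5 of 5 animals (limma adjusted p = 0.163). The last gene to pass the filter was KCNJ12, with a mean of 6.13 log2.

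Genes that work with potassium channels under other names were taken as 2 lists, with earlier results of these data known. Of 15 partner genes tested out of 19, 2 were higher and 4 lower in VFC relative to M1C, where 5.19% of all tested probe sets were higher and 5.32% lower. CNTN2, an adhesion protein that clusters KCNA channels beside the nodes of myelinated axons, ranged from 8.51 to 9.41 in VFC and from 9.23 to 9.89 in M1C (-0.55 ± 0.11 log2, limma adjusted p = 0.00881). ADAM23 and its ligand LGI1, which act on axonal KCNA channels, were lower, with differences of -0.33 ± 0.051 log2 (limma adjusted p = 0.0036) and -0.13 ± 0.037 log2 (limma adjusted p = 0.0398). ANK3, the anchor of the axon initial segment, was lower, with a difference of -0.17 ± 0.038 log2 (limma adjusted p = 0.0156). CNTNAP2, the binding partner of CNTN2, was not called (0.063 ± 0.049 log2). DPP10, an auxiliary protein of KCND channels, was higher by 0.24 ± 0.056 log2 (limma adjusted p = 0.0183) and the scaffold gene DLG4 by 0.18 ± 0.043 log2 (limma adjusted p = 0.0176).

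Of 6 potassium pump and transporter genes tested out of 12, limma called 0 higher (also 0 at an unadjusted p under 0.05) and 3 lower in VFC relative to M1C, against the same 5.19% and 5.32%. The cotransporter SLC12A2 ranged from 8.97 to 9.52 in VFC and from 9.37 to 10.02 in M1C (-0.46 ± 0.071 log2, limma adjusted p = 0.00332). SLC12A4, another cotransporter, was lower, with a difference of -0.35 ± 0.064 log2 (limma adjusted p = 0.00598) and ATP1B1, a sodium pump subunit, with -0.15 ± 0.044 log2 (limma adjusted p = 0.0491). SLC12A5, the neuronal chloride extruder, was not called (-0.053 ± 0.048 log2). In STC relative to M1C, ADAM23 (-0.22 ± 0.051 log2, limma adjusted p = 0.0463) and SLC12A2 (-0.34 ± 0.071 log2, limma adjusted p = 0.0302) were lower, and in VFC relative to STC limma called 0 of the 15 partner genes (4 at an unadjusted p under 0.05) and 0 of the 6 pump and transporter genes (0).

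Left was compared with right to ask whether the hemispheres differ in expression, and in no region was a potassium channel gene called. Limma called 0 of 65 genes at adjusted p under 0.05 for the mean of the 3 regions, for VFC, STC or M1C alone and for the interaction of hemisphere and region, and 0% of all tested probe sets, with all arrays and without the 2. At an unadjusted p under 0.05 there were 10 genes for the mean of regions (15.4%, against 6.62% of all tested probe sets), 1 for VFC (1.54%, against 3.58%), 3 for STC (4.62%, against 4.66%), 4 for M1C (6.15%, against 5.63%) and 2 for the interaction (3.08%, against 3.75%). Without the 2 arrays the counts were 4 (6.15%, against 4.79%), 2 (against 4.3%), 1 (against 4.17%), 4 (against 5.75%) and 3 (4.62%, against 4.5%). For the mean of regions the share of genes was thus 15.4% with all arrays and 6.15% without the 2, each of which enters the difference of its own animal.

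Of the 5 genes with the smallest p for the mean of regions, KCNA2, KCNA1, KCNJ10 and KCNA3 were also called in VFC relative to M1C, and KCNC4 was called there without the 2 arrays. Of all 65 genes 7 were called higher and 12 lower in VFC relative to M1C. The same VFC and M1C arrays enter both comparisons, among them M1C left of animal 3, so the overlap does not show a difference between hemispheres. KCNA2 had left minus right differences of -0.15, -0.29, -0.19, -0.05 and -0.09 log2 in animals 1 to 5, all lower on the left. Their mean was -0.16 ± 0.043 log2 (limma adjusted p = 0.528), and without the 2 arrays -0.094 ± 0.056 log2. KCNC4 had 0.07, 0.07, 0.16, 0.26 and 0.15 log2, all higher on the left, with a mean of 0.14 ± 0.040 log2 (limma adjusted p = 0.552) and 0.10 ± 0.035 log2 without the 2 arrays. KCNA1 had -0.06, -0.27, -0.37, -0.03 and -0.10 log2, a mean of -0.17 ± 0.055 log2 (limma adjusted p = 0.647), which was -0.072 ± 0.070 log2 without the 2 arrays. The largest of its differences belonged to animal 3, whose M1C left array stands apart. KCNJ10 averaged -0.12 ± 0.043 log2 (limma adjusted p = 0.686) and KCNA3 0.11 ± 0.041 log2 (limma adjusted p = 0.691), each the same way in 5 of 5 animals, and -0.081 and 0.076 log2 without the 2 arrays. The 4 markers of large-axon and fast-firing neurons had a median left minus right of -0.14 log2, and -0.015 log2 without the 2 arrays, and limma called 0 of them (3 and 0 at an unadjusted p under 0.05).

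**Figure D4:**
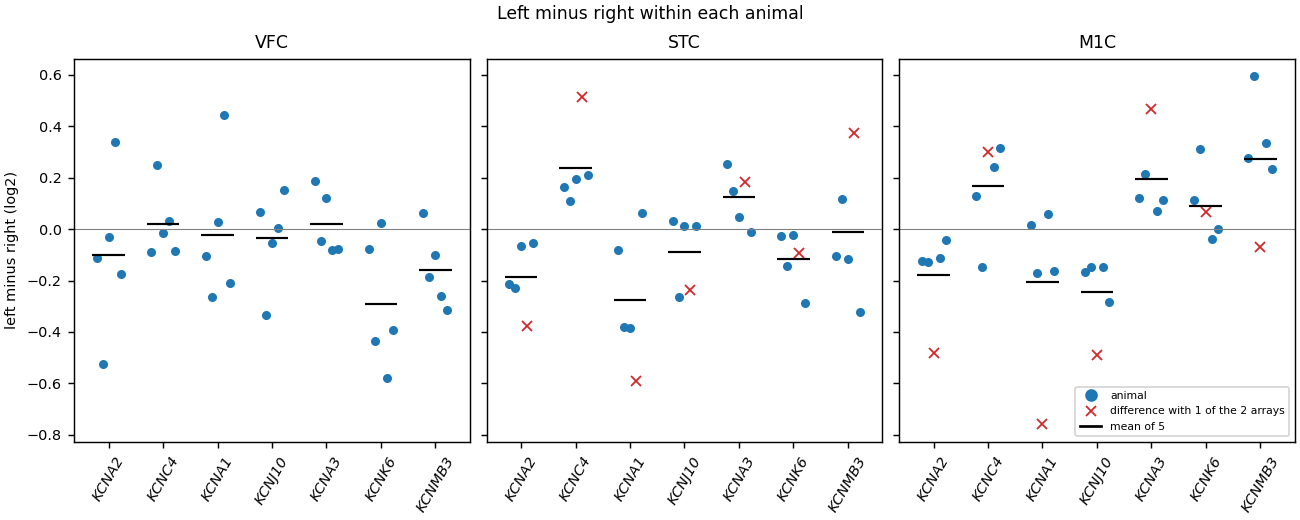
Left minus right log2 differences within each animal for 7 potassium channel genes in VFC, STC and M1C. Points are animals, horizontal lines are means of 5, and red crosses are the differences that contain 1 of the 2 arrays that stand apart (animal 4 in STC, animal 3 in M1C). The crosses are the farthest from 0 for KCNA1, at -0.59 log2 in STC and -0.76 log2 in M1C, while KCNK6 in VFC, where there is no cross, has a mean of -0.29 log2.

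In VFC the smallest p belonged to KCNK6, a two-pore channel. It had 6.39, 6.17, 6.67, 6.08 and 6.08 log2 on the left in animals 1 to 5 and 6.47, 6.60, 6.64, 6.65 and 6.47 on the right. It was lower on the left in 4 of 5 animals, with the sides overlapping through animal 3, by -0.29 ± 0.079 log2 (limma adjusted p = 1). KCNB2 (-0.13 ± 0.065 log2) and the acid-sensitive two-pore channel KCNK3 (-0.17 ± 0.091 log2) followed. These VFC differences use neither of the 2 arrays but do use VFC left of animal 4, and without all 4 arrays they were -0.22 (KCNK6), -0.12 (KCNB2) and -0.11 log2 (KCNK3).

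In STC the smallest p belonged to KCNC4, with 6.93, 6.90, 6.80, 6.85 and 6.78 log2 on the left in animals 1 to 5 and 6.76, 6.79, 6.61, 6.34 and 6.57 on the right. The left was higher in each animal, by 0.24 ± 0.074 log2 (limma adjusted p = 0.999), and the largest difference was that of animal 4, whose right array stands apart, and it was 0.17 ± 0.075 log2 without the 2 arrays. KCNJ13 was below the right side in 5 of 5 animals (-0.42 ± 0.17 log2, limma adjusted p = 0.999), where the 4 meningeal markers had a median of -0.85 log2, and KCNA1 was below it in 4 of 5 (-0.27 ± 0.12 log2). The part of meningeal cells in the value of KCNJ13 was not tested.

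In M1C the smallest p belonged to KCNJ10, with 10.41, 10.47, 9.98, 10.58 and 9.89 log2 on the left in animals 1 to 5 and 10.58, 10.62, 10.47, 10.73 and 10.17 on the right. It was lower on the left in each animal although the sides overlapped, by -0.25 ± 0.073 log2 (limma adjusted p = 0.80), and by -0.19 ± 0.075 log2 without the 2 arrays. KCNA3 was 0.20 ± 0.064 log2 higher on the left (limma adjusted p = 0.80), and 0.13 log2 higher without the 2 arrays. KCNMB3, a BK auxiliary subunit, had 6.30, 6.39, 6.21, 6.50 and 6.26 log2 on the left and 6.02, 5.80, 6.28, 6.17 and 6.03 on the right. It was higher on the left in all animals but animal 3, by 0.27 ± 0.094 log2 (limma adjusted p = 0.80). Without the 2 arrays, when animal 3 has no M1C difference, it was 0.36 ± 0.081 log2 with an unadjusted p of 0.000549 and a limma adjusted p of 0.538. Values of KCNMB3 lie near the filter level of 6.04 log2.

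The genes with the smallest p for a difference between regions in left minus right were KCNK6 (moderated F = 5.92, limma adjusted p = 0.995), KCNMB3 (F = 5.49) and KCNK3 (F = 3.04), and none was called. For KCNMB3 left minus right was 0.27 ± 0.094 log2 in M1C, -0.16 ± 0.094 in VFC and -0.010 ± 0.094 in STC, and without the 2 arrays its F was 13.0 (limma adjusted p = 0.672).

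For left minus right over the 3 regions, KCNS1 had -0.24 ± 0.087 log2 (limma adjusted p = 0.691) and -0.073 log2 without the 2 arrays, and KCNC1 had -0.095 ± 0.039 log2 and 0.0017 log2. KCND2, KCND3, KCNQ5, KCNH7, KCNAB1, KCNIP1, KCNMA1, KCNN2, KCNJ3, KCNK1 and KCNK2 lay between -0.081 (KCNIP1) and 0.056 log2 (KCND3), with standard errors of 0.034 (KCNK1) to 0.053 log2 (KCND2). By single regions these 11 genes had differences from -0.12 (KCNIP1 in VFC) to 0.13 log2 (KCND3 in M1C).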

How the data were processed

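The authors deposited log2 values made by RMA with the oligo package, per the submitters' processing notes, which give no version, so background, differences between arrays and the joining of probes were all dealt with before deposit. The genome build is not given in the sources used here, and no coordinates are given. Arrays have no read depth, so precision depends on how many animals were sampled. Genes were named through GEO's platform table, and all 75 symbols were found in the RefSeq table. The genes and lists were chosen with earlier results of these data known.

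Probe sets with a mean above the 40th percentile of all probe sets (6.04 log2) were tested, 24292 of 40489. The limma package (version 3.58.1) was run under R 4.3.3, and data.table (version 1.17.8) read the files. For regions, both hemispheres of an animal were averaged to 15 values and animal was a block (8 residual degrees of freedom). For hemispheres, 15 differences within animals were fitted with 1 mean per region (12 degrees of freedom) or averaged per animal (4), and for the interaction limma's moderated F (2 degrees of freedom) was taken. Two-sided p-values were adjusted by Benjamini-Hochberg over all tested probe sets, with a threshold of 0.05. Errors are moderated standard errors unless called SD. That the fits recover known changes was tested on simulated data.

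Genes named in a region comparison were up to 12 higher and 12 lower called genes with the same direction in 5 of 5 animals. Also named were 16 measured examples, called or not, and, for hemispheres, the 5 genes with the smallest p over all regions, 3 per region and 3 for the interaction. Whether same-numbered samples pair comes from the labels, where a number marks an animal. Settings with each hemisphere alone were chosen after seeing the data. The protein sequences planned were not used here.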

Additional observations from a re-analysis of the deposited data

Results flagged for a closer look

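Among 40 sets of 5 left minus right differences and 54 sets of 5 regional levels of named genes, 4 had 1 animal far from the others, where chance gives about 1 in 20 sets. In STC, left minus right of KCNC4 was 0.51 log2 in animal 4, whose right array stands apart, and 0.11 to 0.21 log2 in the other animals. In STC the level of KCNAB1 was 9.01 log2 in animal 5 and 9.19 to 9.23 in the others, and that of KCNK10 was 6.99 log2 in animal 5 and 7.22 to 7.30 in the others. In M1C the level of KCNH8 was 6.32 log2 in animal 1 and 6.59 to 6.65 in the others. These sets used all arrays. Without the 2 arrays that stand apart, KCNH8 in M1C was 7.06 log2 in animal 3, and KCNAB1 in STC was 9.14 log2 in animal 4. Both values lie outside the ranges given for the others, so these flags depend on the 2 arrays.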

How the results depend on the processing

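No call reversed its direction under any alternative run. With all 30 arrays used singly (hemispheres not averaged, so 2 arrays of an animal count apart), the counts of higher and lower genes were 11 and 12 in VFC relative to M1C (7.22% and 7.22% of all tested probe sets), 4 and 7 in STC relative to M1C (3.3% and 3.15%), and 5 and 4 in VFC relative to STC (1.52% and 0.762%). Animal pairs the samples by design, and with no replicate block they were 5 and 7 (1.81% and 1.62%), 0 and 0 (0% and 0%), and 0 and 0 (0.037% and 0.0206%). Without the filter they were 0 and 1 in STC relative to M1C (0.148% and 0.156%) and 0 and 0 in VFC relative to STC (0.0321% and 0.00494%), and with a filter at the 60th percentile STC relative to M1C had 2 higher genes (2.36%). Without the 2 arrays the STC relative to M1C counts were 7 and 11, and without all 4 they were 7 and 12; the cause was not tested. With 1 animal left out in turn, VFC relative to M1C had 5 to 8 higher genes (2.01% to 5.03% of all tested probe sets) and 9 to 11 lower (2.1% to 4.32%). In the same runs STC relative to M1C had 0 to 2 higher (0% to 1.08%) and 0 to 4 lower (0.00823% to 0.675%). VFC relative to STC had 0 to 2 higher (0.00412% to 0.235%) and 0 to 1 lower (0% to 0.103%). Left hemispheres alone gave 0 and 0 in each region comparison (at most 0.0123% of all tested probe sets in either direction). Right hemispheres alone gave 0 and 1 in STC relative to M1C (0.0741% and 0.0288%) and 0 and 0 in VFC relative to STC (0% and 0%). Of the values of single named genes under alternatives, 481 kept their side of the threshold and 104 lost the call with the direction kept. The 481 include left minus right and interaction values, none of which was called in any run. All 104 losses were thus among the named genes of the region comparisons. Of 26 such calls, right hemispheres alone kept 16 and left hemispheres alone kept 0. The number of animals and signals near the filter level (KCNH8, KCNMB3, and some arrays of KCNK6 and KCNJ13) limit what could be detected.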
